A study of Rattus norvegicus with 7 samples.

Results

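The endocannabinoid receptor gene Cnr1 and 7 genes of the enzymes that make and break down endocannabinoids were followed in 2 brain regions of DHA-fed rats. The members were chosen by gene symbol and are Cnr1, Dagla, Daglb, Napepld, Faah, Mgll, Abhd6 and Abhd12. All 8 were found in both expression tables, out of 16514 symbols listed in either. Where a symbol had several loci, the locus with the highest mean was taken.

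Endocannabinoids are lipid messengers released on demand from membranes, mostly by postsynaptic neurons. They travel backwards across the synapse to the CB1 receptor on axon terminals, where they lower transmitter release. 2-AG (2-arachidonoylglycerol) is made by diacylglycerol lipases and is hydrolysed by monoacylglycerol lipase and by the enzymes ABHD6 and ABHD12. Anandamide, the other main messenger, belongs to the N-acylethanolamines, which are made in part by NAPE-PLD and hydrolysed by fatty acid amide hydrolase. Both carry arachidonic acid, an omega-6 fatty acid, while DHA (docosahexaenoic acid) is an omega-3 fatty acid of brain membranes. CB1 is abundant in the hippocampus, and in the hypothalamus the system takes part in the control of feeding.

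The study gave male Sprague Dawley rats, 2 months old at the start, a diet with DHA or regular chow for 6 weeks, in order to follow the transcriptome of hippocampus and hypothalamus. The 7 libraries analysed here all came from rats fed DHA, 4 of hippocampus and 3 of hypothalamus, and chow-fed rats were not analysed here, so nothing below is an effect of DHA. The labels do not say whether replicates were separate rats, or whether both tissues came from the same rats. Levels are FPKM (fragments counted per unit of transcript length and of library size), so that levels of different genes may be set side by side.

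Deposited FPKM summed to 370020 to 391349 per hippocampus library and to 443335 to 471484 per hypothalamus library, and read depth is unknown. The tissue labels were checked against defining markers. Neurod6, Wfs1, Slc17a7 and Itpka summed to 927 to 1323 FPKM in hippocampus and to 18.3 to 24.6 FPKM in hypothalamus. Oxt, Avp, Pmch, Hcrt, Pomc and Cartpt summed to 5948 to 8516 FPKM in hypothalamus and to 7.58 to 12.1 FPKM in hippocampus. The choroid plexus list summed to 35.3 FPKM in hippocampus replicate 2 and to 2091 to 5996 FPKM in the other 3 hippocampus libraries, against 34.8 to 73.2 FPKM in hypothalamus, with Otx2 at 0 throughout. The meninges list ranged from 31.3 to 262 FPKM in hippocampus and from 73.1 to 406 FPKM in hypothalamus, with Col1a2 at 0 throughout. The 3 endothelial markers measured summed to 77.9 to 125 FPKM in hippocampus and to 47.5 to 69.1 FPKM in hypothalamus, without overlap and with none at 0. With libraries rescaled to the same sum, Flt1 and Cldn5 were higher in every hippocampus library, by 1.44 and 1.26 on the log2 scale, and Pecam1 overlapped. Of the 10736 symbols compared between tissues, 28.2% were higher in every hippocampus library. With FPKM as deposited, Cldn5 overlapped too, and that share was 19%. The part of these lists in the differences between tissues was not tested.

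Of the 8 genes, 5 were higher in hippocampus, 1 was higher in hypothalamus, 1 was higher in hippocampus by less than 2-fold, and 1 was listed at 0 in every library. For this comparison each library was rescaled to the same sum over the symbols of both tables. A gene was called when no library of one tissue overlapped the other and the means of log2(value + 1) differed by at least 1, that is 2-fold. Cnr1, Dagla, Mgll, Napepld and Abhd6 met this towards hippocampus (5 of 8), where 14.5% of 10736 compared symbols did. Abhd12 met it towards hypothalamus (1 of 8), where 13.4% of compared symbols did. Faah, the gene listed at 0, is not itself among the compared symbols, so 7 of the 8 genes passed the same filter as these. Without the 2-fold condition Daglb joined the genes higher in hippocampus (6 of 8, against 28.2% of compared symbols), and Abhd12 stood alone towards hypothalamus (1 of 8, against 24.4%). The median difference of the 7 genes above 0 was 1.42 on the log2 scale, hippocampus minus hypothalamus, against 0.05 over all compared symbols. Tissue and table cannot be told apart, as each table holds 1 tissue, and no test was made across them. An exact permutation test of 4 libraries against 3 could in any case not go below a two-sided p of 0.0571.

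The direction of all 7 differences held under 4 ways of scaling the libraries. With FPKM as deposited, the median of all compared symbols moved from 0.05 to -0.21, and the calls over all symbols shifted to 8.64% higher in hippocampus and 16.9% higher in hypothalamus. The same 5 genes and Abhd12 were called, with Napepld and Abhd6 close to the 2-fold line at 1.04 and 1.03 on the log2 scale. In bulk tissue, fewer cells that express a gene and less RNA per cell cannot be told apart.

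**Figure D1:**
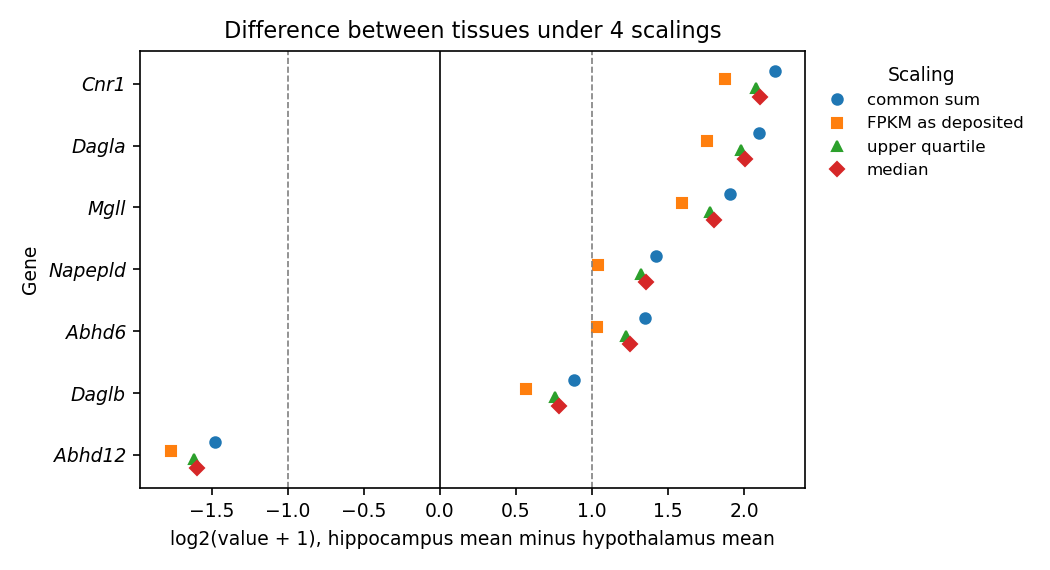
Difference between tissues (x axis, hippocampus mean minus hypothalamus mean of log2(value + 1)) for the 7 genes above 0 (y axis), with 1 symbol for each of 4 scalings of the libraries; dashed lines mark 2-fold. Cnr1 runs from 1.88 to 2.20 over these scalings, Daglb stays below 1, and Abhd12 is the one gene left of 0, between -1.77 and -1.48.

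The receptor gene Cnr1 read 49.4, 88.6, 65.0 and 113 FPKM in hippocampus replicates 1 to 4, and 22.8, 16.8 and 20.2 FPKM in hypothalamus replicates 1 to 3. Every hippocampus library lay above every hypothalamus library, and replicate 1 was the lowest of the hippocampus libraries. The means were 79.1 ± 27.9 FPKM (SD, n = 4) and 19.95 ± 2.98 FPKM (SD, n = 3). The rescaled difference was 2.20 ± 0.28 on the log2 scale (SE), or 4.60-fold, and 361 of the 10736 compared symbols differed by as much towards hippocampus. Within a library, Cnr1 lay above 87.1% to 95.0% of compared symbols in hippocampus and above 60.9% to 68.0% in hypothalamus. A second hippocampal locus of Cnr1 reached at most 0.0891 FPKM.

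Cnr1 was also the most variable of the genes among hippocampus libraries, with a highest value 2.29 times the lowest. Its SD of log2(FPKM + 1) was 0.51, above that of 87.8% of hippocampal loci of at least 1 FPKM, whereas in hypothalamus it was 0.21, above 39.0% of loci. The vesicle release genes Snap25 and Syt1 were, like Cnr1, highest in replicate 4. Snap25 read 568, 687, 558 and 889 FPKM and Syt1 446, 584, 453 and 825 FPKM in replicates 1 to 4. The other 3 of the 5 neuron markers, Rbfox3, Map2 and Eno2, were highest in replicate 1 and lowest in replicate 4. Rbfox3, the gene of the nuclear antigen NeuN, read 128, 78.6, 69.7 and 57.9 FPKM. Eno2, with 2 loci in each table, was far lower, at 5.28, 4.61, 2.17 and 0.611 FPKM in hippocampus replicates 1 to 4. In hypothalamus Eno2 read 0.948 to 1.21 FPKM. Unknown read depth limits the reading of such low values. The 5 markers summed to 1181 to 1869 FPKM in hippocampus and to 710 to 833 FPKM in hypothalamus, without overlap, with none of the 5 at 0. Most of that sum was Snap25 and Syt1. After rescaling, Rbfox3, Snap25 and Syt1 were higher in every hippocampus library, as were 28.2% of all compared symbols, while Map2 and Eno2 overlapped. With FPKM as deposited Rbfox3 overlapped as well, and the share of all compared symbols was 19%. The part of the neuron markers in the Cnr1 values was not tested.

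**Figure D2:**
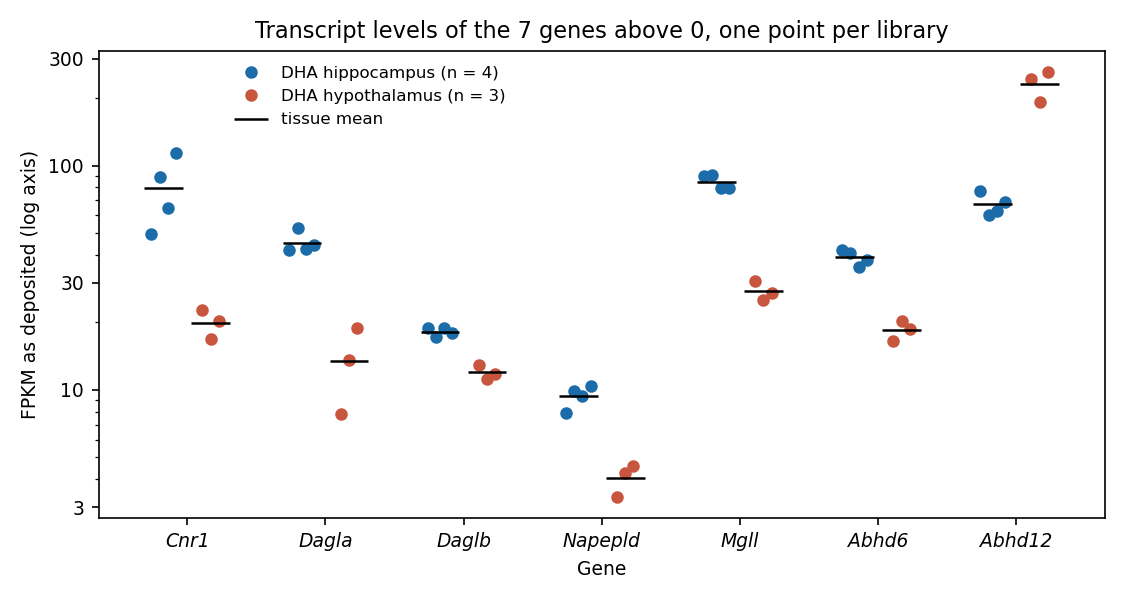
FPKM as deposited on a log axis for the 7 genes above 0, with 1 point per library (4 hippocampus, 3 hypothalamus) and a line at each tissue mean. Hippocampal Cnr1 spreads from 49.4 to 113 FPKM, hypothalamic Dagla from 7.83 to 18.8 FPKM, and Abhd12 is the gene with the higher points in hypothalamus.

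CB1 is known to be dense on the terminals of GABA neurons that contain cholecystokinin. The cholecystokinin gene Cck was higher in hippocampus, at 262 ± 130 FPKM (SD, n = 4) against 86.6 ± 57.5 FPKM (SD, n = 3). Bulk tissue does not show which cells carried it. In both tissues replicate 1 was highest for Cck. In hippocampus Cnr1 was lowest in replicate 1 and highest in replicate 4, where Cck was lowest. Cck read 457 FPKM in hippocampus replicate 1 against 186 to 204 FPKM in the other 3, and 153 FPKM in hypothalamus replicate 1 against 52.4 and 54.3 FPKM. Without replicate 1 of both tissues, an alternative added after seeing the data, Cck averaged 197 and 53.3 FPKM, and its rescaled difference was 2.18 against 1.97 over all libraries. Genes of GABA synthesis and storage went the other way. Gad2 averaged 40.7 ± 2.97 FPKM in hippocampus against 171 ± 28.7 FPKM in hypothalamus. Gad1 read 70.3 ± 7.77 and 128 ± 24.4 FPKM, and Slc32a1, the vesicular GABA transporter, 36.1 ± 9.86 and 77.7 ± 19.3 FPKM. No library of either tissue overlapped the other for these 3 genes. Of all compared symbols, 24.4% were higher in every hypothalamus library after rescaling, and 35.2% with FPKM as deposited. Gad2 alone of the 3 genes passed 2-fold after rescaling, and Slc32a1 did too with FPKM as deposited. Slc17a8, a vesicular glutamate transporter, was low in both tissues and overlapped between them, at 1.81 ± 0.581 and 1.46 ± 0.430 FPKM.

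The symbols whose profile over the 7 libraries was most like that of Cnr1 were Asb8 (Pearson r of 0.997), Prkab2 (0.997) and Lrp4 (0.996), among 6443 symbols with 1 locus in each table. Prkab2 encodes a regulatory subunit of the energy sensor AMPK. All libraries of a tissue share their table, and 1088 of the 6443 symbols had an r above 0.9. Lrp4, a receptor of agrin, read 11.7, 17.2, 12.4 and 20.02 FPKM in hippocampus replicates 1 to 4. It was chosen for its likeness to Cnr1 over these libraries, so its replicate order is not a separate result. Its hypothalamic mean was 6.46 ± 0.502 FPKM (SD, n = 3).

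Among the enzymes that make 2-AG, Dagla, the diacylglycerol lipase needed for most synaptic 2-AG, read 41.97, 52.5, 42.5 and 44.4 FPKM in hippocampus replicates 1 to 4. In hypothalamus replicates 1 to 3 it read 7.83, 13.6 and 18.8 FPKM. The tissues did not overlap, and the rescaled difference of 2.10 ± 0.34 (SE) on the log2 scale was next to that of Cnr1. Replicate 1 was the low library of hypothalamus, and the SD of log2(FPKM + 1) there, 0.59, exceeded that of 90.5% of loci. Without that library the rescaled difference was 1.78 on the log2 scale.

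Daglb, the second diacylglycerol lipase, prominent in microglia and macrophages, read 18.8, 17.2, 18.9 and 17.9 FPKM in hippocampus and 12.9, 11.2 and 11.8 FPKM in hypothalamus. It was the steadiest of the genes, with an SD below that of all but 2.75% of hippocampal loci. Every hippocampus library was higher, but the rescaled difference of 0.88 ± 0.08 (SE) stayed under 2-fold. The ratio of Dagla to Daglb within a library does not depend on how libraries are scaled. It was 2.23 to 3.054 in hippocampus, a mean of 2.50 ± 0.385 (SD, n = 4). In hypothalamus it was 0.606, 1.22 and 1.59, a mean of 1.14 ± 0.497 (SD, n = 3). Dagla exceeded Daglb in all 4 hippocampus libraries and in 2 of 3 hypothalamus libraries, and the ratios of the tissues did not overlap.

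Napepld, which encodes the phospholipase D that releases N-acylethanolamines, was the lowest of the genes above 0 in both tissues. It read 7.91, 9.93, 9.42 and 10.4 FPKM in hippocampus and 3.35, 4.27 and 4.59 FPKM in hypothalamus. Hippocampus was higher in every library, with a rescaled difference of 1.42 ± 0.13 (SE) on the log2 scale. Napepld lay above 42.8% to 49.6% of compared symbols in hippocampus and above 18.5% to 25.7% in hypothalamus.

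Faah, the gene of the main anandamide hydrolase, was listed at 0 FPKM with status OK in all 7 libraries, at a single locus in each table. It therefore has no fold change, and its level was not measured in a way that can be compared. Nsun4, which follows Faah in both tables and has 2 loci in each, was likewise listed at 0 at both loci in every library. The next row, Uqcrh, a subunit gene of the respiratory chain, read 337 to 393 FPKM in hippocampus and 412 to 476 FPKM in hypothalamus. Of the 15805 symbols in both tables, 2444 (15.5%) were listed at 0 in all libraries. Genes that most cells use were among the low entries: the 2 loci of Hprt1, a purine salvage gene, reached at most 1.52 FPKM in hippocampus and 0.0403 FPKM in hypothalamus. A listed 0 may be a failed estimate, so it is not read as absence of Faah transcript.

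Of the 3 genes of 2-AG hydrolysis, Mgll and Abhd6 were higher in hippocampus and Abhd12 in hypothalamus. Mgll encodes monoacylglycerol lipase, the presynaptic enzyme that ends most 2-AG signals in brain. It read 90.2, 91.0, 79.1 and 79.0 FPKM in hippocampus and 30.6, 25.1 and 26.9 FPKM in hypothalamus. Every hippocampus library lay above every hypothalamus library. The rescaled difference was 1.91 ± 0.10 (SE) on the log2 scale.

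Abhd6 encodes a membrane hydrolase that degrades 2-AG at its postsynaptic site of synthesis. It read 42.1, 40.7, 35.2 and 37.8 FPKM in hippocampus and 16.5, 20.4 and 18.8 FPKM in hypothalamus. The tissues did not overlap, and the rescaled difference was 1.35 ± 0.10 (SE). Mgll exceeded Abhd6 in every library, by 2.09 to 2.24 times in hippocampus and by 1.23 to 1.86 times in hypothalamus.

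Abhd12 encodes a lysophosphatidylserine lipase that also hydrolyses 2-AG and is abundant in microglia. It read 76.8, 60.1, 62.5 and 69.1 FPKM in hippocampus replicates 1 to 4. In hypothalamus replicates 1 to 3 it read 242, 193 and 261 FPKM, so that every hypothalamus library lay far above every hippocampus library. The rescaled difference was -1.48 ± 0.14 (SE) on the log2 scale, or 2.79-fold, and 876 compared symbols differed by as much in that direction. Hypothalamic Abhd12 lay above 97.0% to 97.7% of compared symbols in its libraries.

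Of 3 lists of glial markers, microglia and oligodendrocyte markers had a higher summed FPKM in hypothalamus, astrocyte sums overlapped, and single markers of each were divided in direction. The sums are of FPKM as deposited. The 6 microglia markers summed to 127 to 174 FPKM in hippocampus and to 245 to 254 FPKM in hypothalamus, without overlap. C1qb, with 2 loci in hippocampus and 1 in hypothalamus, weighed heavily in that gap, at 14.7 ± 2.27 against 72.9 ± 4.07 FPKM (SD). After rescaling, 3 of the 6 were higher in every hypothalamus library, against 24.4% of all compared symbols, and 4 with FPKM as deposited, where C1qa was added and the share of all compared symbols was 35.2%. Cx3cr1 was higher in every hippocampus library on both scales. The median rescaled difference of the 6 was -0.30 on the log2 scale. The 5 oligodendrocyte markers summed to 2741 to 3122 and to 4537 to 6110 FPKM. Most of that sum was Mbp, at 1846 ± 104 and 3783 ± 602 FPKM (SD). Mbp and Mobp were higher in every hypothalamus library, Mog and Cnp were higher in every hippocampus library, and Mag overlapped. The median rescaled difference of the 5 was -0.068. The 6 astrocyte markers summed to 1251 to 1466 and to 1131 to 1536 FPKM, with Aqp4 (-1.19) and Aldh1l1 (-1.30) higher in every hypothalamus library by rescaled difference, Slc1a2 (1.89) higher in every hippocampus library, and the other 3 overlapping. With FPKM as deposited, Slc1a3 was also higher in every hypothalamus library. Of all compared symbols, 24.4% were higher in every hypothalamus library and 28.2% in every hippocampus library after rescaling. With FPKM as deposited these shares were 35.2% and 19%. No marker of these lists was at 0. Their part in the Abhd12 difference was not tested.

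As a share of the FPKM of the 3 hydrolases within a library, Mgll held 43.1%, 47.5%, 44.7% and 42.5% in hippocampus replicates 1 to 4. It held 10.6%, 10.5% and 8.77% in hypothalamus replicates 1 to 3. The means were 44.5% ± 2.20 (SD, n = 4) and 9.97% ± 1.03 (SD, n = 3). Abhd6 held 20.4% ± 0.569 in hippocampus and 6.79% ± 1.54 in hypothalamus, and Abhd12 held 35.1% ± 2.65 in hippocampus and 83.2% ± 2.15 in hypothalamus. None of the 3 shares overlapped between the tissues, and shares within a library do not depend on scaling. They are shares of transcripts per length and not of enzyme activity.

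**Figure D3:**
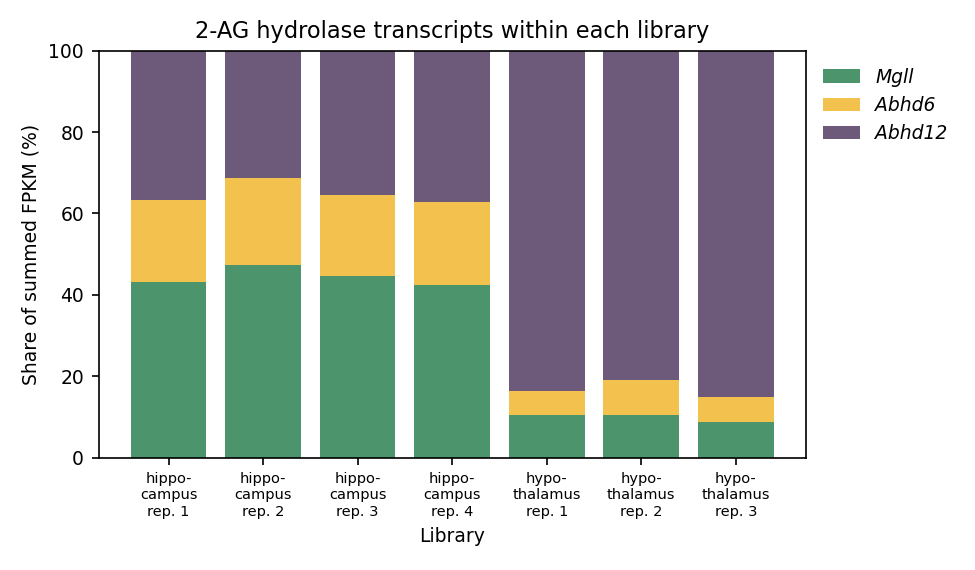
Stacked bars give the share of the summed FPKM of Mgll, Abhd6 and Abhd12 (y axis, percent, from 0) held by each gene in each of the 7 libraries (x axis). Mgll holds 42.5% to 47.5% of each hippocampus bar, and Abhd12 holds 80.9% to 85.1% of each hypothalamus bar.

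The 3 hydrolase promoters are shown because these genes act on the same lipid and differed in opposite directions. Each sequence is the 250 bases before the transcription start in RefSeq (build GRCr8, 5′ to 3′ on the strand of the gene), with the GC box GGGCGG or its reverse complement in capitals. Mgll lies at chr4:122749186-122749435 on the plus strand, Abhd6 at chr15:19337194-19337443 and Abhd12 at chr3:160179930-160180179 on the minus strand.
Mgll: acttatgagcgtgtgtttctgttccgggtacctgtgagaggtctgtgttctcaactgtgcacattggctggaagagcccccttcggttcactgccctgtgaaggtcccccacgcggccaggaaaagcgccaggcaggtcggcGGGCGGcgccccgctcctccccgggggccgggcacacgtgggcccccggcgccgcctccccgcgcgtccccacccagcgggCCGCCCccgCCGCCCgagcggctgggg
Abhd6: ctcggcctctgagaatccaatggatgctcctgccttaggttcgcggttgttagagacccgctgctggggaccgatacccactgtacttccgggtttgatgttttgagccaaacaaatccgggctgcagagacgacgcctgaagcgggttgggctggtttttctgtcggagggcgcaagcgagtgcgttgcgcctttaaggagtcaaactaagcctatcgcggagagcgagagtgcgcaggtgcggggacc
Abhd12: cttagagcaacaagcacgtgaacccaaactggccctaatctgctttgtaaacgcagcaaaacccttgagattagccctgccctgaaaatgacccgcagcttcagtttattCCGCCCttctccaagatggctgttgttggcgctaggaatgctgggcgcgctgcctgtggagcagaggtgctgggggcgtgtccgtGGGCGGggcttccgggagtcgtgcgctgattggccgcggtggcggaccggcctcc

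The Mgll window held 3 GC boxes, the Abhd12 window 2 and the Abhd6 window none, where 30.5% of 33469 rat promoter windows of the same length held at least 1. Each of the 3 windows held 1 CCAAT motif on either strand, as 34.0% of windows held at least 1, and none held TATAAA, which 12.9% of windows held. All were rich in GC, at 72.4% for Mgll, 58.4% for Abhd6 and 60.4% for Abhd12 against a median of 51.2%. Of the 8 genes, 6 matched the RefSeq promoter table, all but Cnr1 and Dagla. The files name another build, rn5, and these sequences were matched by symbol alone. A match describes letters in a window and not a bound site.

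The order of the genes differed between the tissues. In hippocampus the means ran from Mgll (84.8 ± 6.65 FPKM) through Cnr1, Abhd12 (67.1 ± 7.47 FPKM), Dagla (45.3 ± 4.88 FPKM), Abhd6 (39.0 ± 3.04 FPKM) and Daglb to Napepld (9.42 ± 1.09 FPKM; SD, n = 4 throughout). There, the ranges of Mgll and Cnr1, of Cnr1 and Abhd12, and of Dagla and Abhd6 overlapped, as did those of Cnr1 and Dagla, which are not neighbours in the order. In hypothalamus Abhd12 (232 ± 35.5 FPKM) led by far, followed by Mgll (27.6 ± 2.81 FPKM), Cnr1, Abhd6 (18.6 ± 1.95 FPKM), Dagla (13.4 ± 5.50 FPKM), Daglb (11.97 ± 0.887 FPKM) and Napepld (4.07 ± 0.646 FPKM; SD, n = 3 throughout). There, Cnr1 overlapped Abhd6, Abhd6 overlapped Dagla, and Dagla overlapped Daglb, while Cnr1 also overlapped Dagla. The ratio of Cnr1 to Mgll was 0.548 to 1.43 in hippocampus and 0.670 to 0.752 in hypothalamus, so for this pair of presynaptic genes the tissues overlapped.

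**Figure D4:**
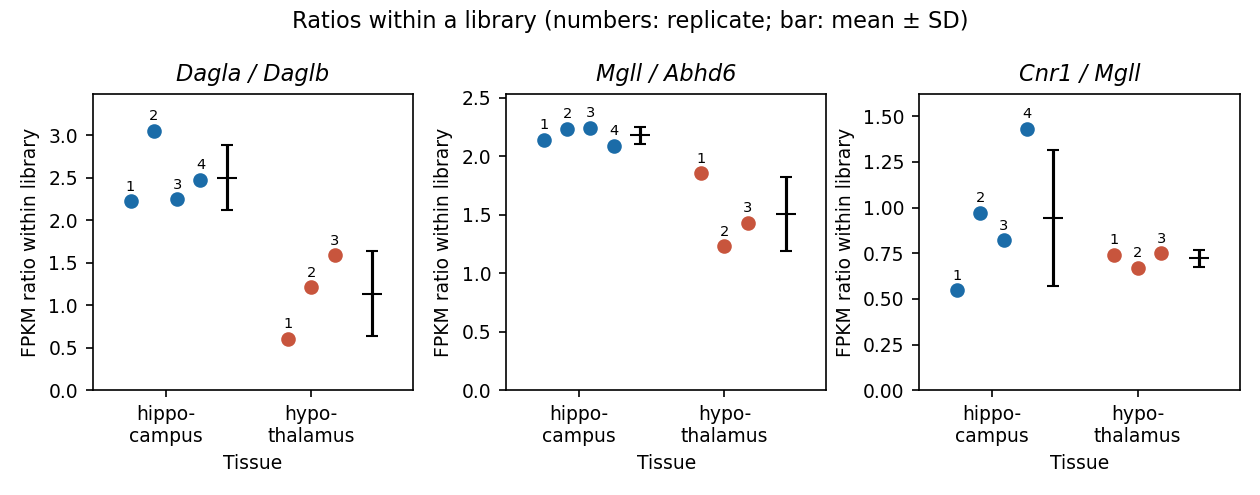
FPKM ratios within a library for 3 gene pairs (1 panel each, y axes from 0), with 1 point per library numbered by replicate and a bar for mean ± SD (n = 4 hippocampus, n = 3 hypothalamus). Dagla/Daglb and Mgll/Abhd6 separate the tissues, and Cnr1/Mgll overlaps, with hippocampus from 0.548 to 1.43.

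The median SD of log2(FPKM + 1) over the 7 genes was 0.15 in hippocampus and 0.19 in hypothalamus, against 0.24 over 11197 hippocampal loci and 0.25 over 11483 hypothalamic loci of at least 1 FPKM. Without that filter the medians over loci were 0.16 and 0.17, the hypothalamic one below that of the 7 genes. Hippocampal Cnr1 and hypothalamic Dagla, described above, varied most.

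Other genes of the pathway were taken from 6 lists of 36 genes. Of these, 22 were compared, 7 were under 1 FPKM on average in both tissues, and 7 were not found for both tissues. Gnai3 and Gnao1 of the G proteins were among the genes not found. Of the 22, 7 were called higher in hippocampus and 3 in hypothalamus at 2-fold, against the 14.5% and 13.4% of all compared symbols. The split was 4 and 4 with FPKM as deposited, against 8.64% and 16.9% of all compared symbols. Without the 2-fold condition, 7 were higher in each direction, against 28.2% of compared symbols in hippocampus and 24.4% in hypothalamus, and 8 overlapped, with a median difference of 0.14 on the log2 scale.

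The group upstream of 2-AG synthesis held 3 of the 7 hippocampal calls, among 6 genes compared, where 14.5% of all compared symbols were called in that direction. The glutamate receptor encoded by Grm5 and muscarinic receptors act through phospholipase C beta, which supplies the diacylglycerol that DAGL enzymes use. Chrm3, a muscarinic receptor, averaged 25.2 ± 4.57 FPKM in hippocampus against 5.20 ± 1.65 FPKM in hypothalamus. Plcb1, the main phospholipase C beta of hippocampus, read 42.03 ± 16.5 and 14.7 ± 3.08 FPKM. Grm5 read 21.4 ± 6.53 and 10.9 ± 2.62 FPKM. Plcb4 went the other way, with 3.34 ± 0.447 FPKM in hippocampal against 11.2 ± 3.77 FPKM in hypothalamic libraries. Plcb3 was also higher in every hypothalamus library, at 4.74 ± 0.422 against 2.54 ± 0.426 FPKM, a rescaled difference of -0.55 that fell short of 2-fold. Chrm1 overlapped because of a single library, reading 0.325 FPKM in hippocampus replicate 1 and 20.7 to 29.99 FPKM in the other 3, against 1.56 to 2.22 FPKM in hypothalamus. With FPKM as deposited, Grm5 dropped below 2-fold.

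Other enzymes were divided in direction as well. Ptgs2, a cyclooxygenase that can oxygenate 2-AG and anandamide, averaged 7.41 ± 0.682 FPKM in hippocampus against 1.03 ± 0.324 FPKM in hypothalamus. Gde1, a phosphodiesterase of an alternative anandamide route, read 178 ± 24.0 and 87.7 ± 12.4 FPKM. Abhd4, a hydrolase that acts before Gde1 in that route, was higher in hypothalamus, at 98.1 ± 4.54 against 37.1 ± 1.43 FPKM. Naaa, a lysosomal amidase of N-acylethanolamines, was higher in every hypothalamus library, at 14.8 ± 1.03 against 5.93 ± 0.719 FPKM, a rescaled difference of -0.99 that fell short of 2-fold and passed it with FPKM as deposited.

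Genes of CB1 signaling also differed between tissues. Gnai2, a G protein subunit that CB1 couples to, averaged 124 ± 24.5 FPKM in hippocampus against 408 ± 141 FPKM in hypothalamus. Gnai1, with 2 loci in each table, was higher in hippocampus at 89.0 ± 14.9 against 53.7 ± 20.3 FPKM, and its libraries overlapped with FPKM as deposited. Cnrip1, which encodes a CB1-interacting protein, was higher in every hypothalamus library, at 80.5 ± 6.55 against 45.3 ± 3.46 FPKM, by less than 2-fold. Ppara, a nuclear receptor of N-acylethanolamines, read 1.98 ± 0.427 and 0.928 ± 0.303 FPKM and dropped below 2-fold with FPKM as deposited. Cnr2, the gene of the CB2 receptor of immune cells, read at most 0.538 FPKM in any library and was not compared. Of the 4 lipid carriers, Fabp3, Fabp5 and Fabp7 overlapped between tissues and Scp2 was higher in every hypothalamus library by less than 2-fold. With FPKM as deposited, Fabp7 was higher in every hypothalamus library too. Of all compared symbols, 24.4% were higher in every hypothalamus library after rescaling, and 35.2% with FPKM as deposited.

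**Figure D5:**
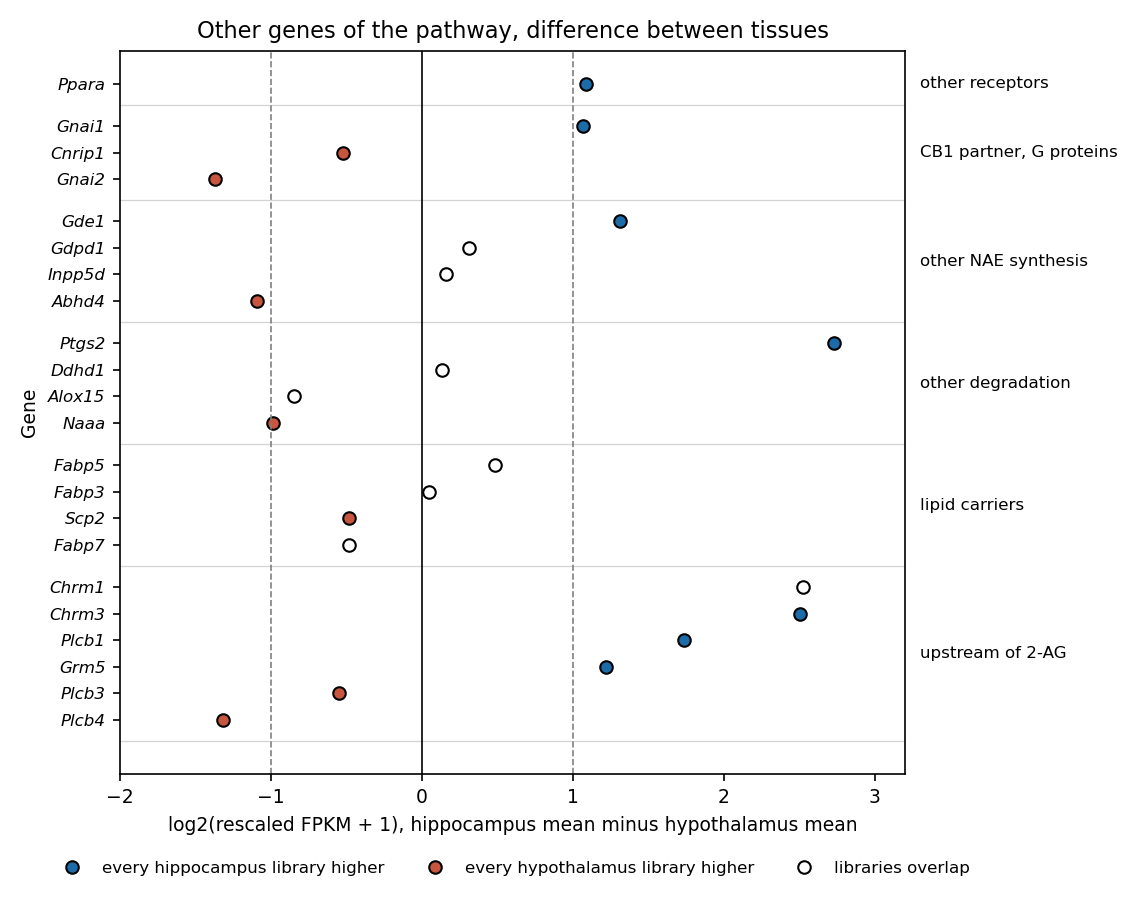
Difference between tissues (x axis, hippocampus mean minus hypothalamus mean of log2(rescaled FPKM + 1)) for the 22 compared genes of the 6 pathway lists (y axis; NAE, N-acylethanolamine). Filled points mark genes whose 4 hippocampus and 3 hypothalamus libraries do not overlap, 7 in each direction, open points the 8 that overlap, and dashed lines 2-fold.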

How the data were processed

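Poly-A RNA was sequenced on an Illumina instrument, per the labels' protocols. The authors computed FPKM values and deposited them as 1 table per tissue. The submitters' processing notes name TopHat2, TopHat, Bowtie2, Bowtie, Cufflinks, Cuffdiff and the build rn5, without versions or roles. Annotation, strand setting and scaling between libraries are not given in the sources used here. FPKM carries no counts, so no counting interval was computed. Locus numbers differ between the tables, which were taken as separately normalized, and no test was made across them.

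Loci not marked OK throughout a table were dropped (86 in hippocampus, 24 in hypothalamus), and tables were joined by symbol. Libraries were rescaled to a sum of 1000000 over 15805 shared symbols. Symbols averaging 1 FPKM or more in either tissue (10736) were compared as log2(value + 1), which understates differences of low genes. Differences are hippocampus minus hypothalamus. Python 3.11.15, numpy 2.4.6 and pandas 2.3.3 were used. Genes named are the 8 members, genes of the pathway and marker lists, and the 3 symbols most like Cnr1 among those averaging at least 5 FPKM. Nsun4, Uqcrh and Hprt1 were chosen after their values were seen. 2 genes were left out of the lists and are not reported here. Members and lists were chosen with earlier results of these data known. Alternatives were pseudocounts of 0.1 and 5, other scalings, summed loci, no filter on low values and leaving out libraries.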

Additional observations from a re-analysis of the deposited data

Results flagged for a closer look

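The values examined across the 4 hippocampus replicates were the FPKM of the 7 members above 0, 12 ratios, shares and sums of members, 73 compared genes of the pathway and marker lists, and 10 summed marker lists. Of these 102 values, 11 exceeded the Dixon limit, where the ratio sets the distance of an extreme replicate from its neighbour against the full spread. Chance flags about 1 in 20, or 5.10 of 102. The summed FPKM of Dagla and Daglb (ratio 0.833) read 60.8, 69.7, 61.4 and 62.3 in replicates 1 to 4, with replicate 2 high. Cck (ratio 0.933) was high in replicate 1, at 457 FPKM against 186 to 204 FPKM in the other 3. Naaa (ratio 0.879) was high in replicate 3, at 6.997 FPKM against 5.50 to 5.68 FPKM. Slc17a8 (ratio 0.899) was high in replicate 4, at 2.68 FPKM against 1.47 to 1.60 FPKM. The sum of the markers of cells known to carry CB1 (ratio 0.854), to which Cck belongs, was high in replicate 1, at 605 FPKM against 320 to 362 FPKM. The neuron marker Map2 (ratio 0.930) was high in replicate 1, at 164 FPKM against 95.6 to 100.5 FPKM. The hypothalamic neuropeptide genes Avp (ratio 0.837) and Pomc (ratio 0.889) were low in hippocampus and highest in replicate 1, at 2.07 and 5.07 FPKM. The meningeal genes Col1a1, Col3a1 and Lum were high in replicate 3. Col1a1 (ratio 0.949) read 71.9 FPKM in that replicate against 3.95 to 7.43 FPKM, Col3a1 (ratio 0.911) 11.4 against 0.800 to 1.74 FPKM, and Lum (ratio 0.949) 5.95 against 1.43 to 1.66 FPKM. The counts of members higher in each tissue were the same with any 1 of these replicates left out. None of the 7 members above 0 stood apart by this measure on its own.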

How the results depend on the processing

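The counts of 5 members higher in hippocampus and 1 in hypothalamus were the same under all 15 alternatives tried, among them each library left out and replicate 1 of both tissues left out. Over 98 alternatives of the 7 member differences, none changed sign, and 7 moved by more than the SD between replicates, 5 of these with FPKM as deposited. The log2 ratio of Dagla to Daglb in hypothalamus, 0.08 over the 3 libraries, changed sign without replicate 2 (-0.014) and without replicate 3 (-0.20), and ranged from -0.20 to 0.44 with each library left out. In hippocampus it ranged from 1.17 to 1.32. The difference of this ratio between tissues was 1.19, and 0.87 without replicate 1 of both tissues, an alternative chosen after seeing the data. The Mgll share ranged from 43.5% to 45.1% in hippocampus and from 9.66% to 10.6% in hypothalamus with each library left out. Pathway genes called higher in hippocampus numbered 4 with FPKM as deposited in place of 7. Over all compared symbols, the calls with a pseudocount of 5 were 11% and 9.14%, in hippocampus and hypothalamus, against 14.5% and 13.4% in the main setting. Without replicate 1 of both tissues they rose to 18.1% and 15.9%. The median replicate SD of the members ranged from 0.10 to 0.16 in hippocampus and from 0.08 to 0.20 in hypothalamus with each library left out. No paired analysis was possible because the labels do not say whether libraries with the same number came from the same rats, and the tissue values come from tables taken as separately normalized, across which no test was made. Unknown depth limits the reading of low values, Napepld among the members.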
